A study of Mus musculus with 6 samples.

Results

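The 6 genes Ptn, Fgf3, Gdf3, Mc5r, Mlf1 and Zdhhc2 were examined in long-term haematopoietic stem cells (LT-HSCs) that carried much or little CD61 on their surface. They are 6 of the 55450 genes in the deposited count tables. They were matched by symbol, and they had been picked because their counts differed widely between the CD61High and CD61Low libraries. The difference between the gates is therefore given below as a description, without a test. CD61 is integrin beta-3, a platelet and megakaryocyte adhesion receptor subunit that some stem cells also display.

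Bulk RNA-seq had been run on LT-HSCs of male WT mice of strain C57/Bl6 aged 22 to 24 months, so both groups share sex, strain, genotype and old age, and no young or treated animals were compared. LT-HSCs were gated as Lin-, Sca1+, cKit+, CD48- and CD150+. The CD61High group (n = 3) held the 10% of these cells with the most CD61 and the CD61Low group (n = 3) the 10% with the least, with 5000 cells lysed per library. The titles give mouse 1, 2 and 3 in each group, so each CD61High library has a CD61Low library of the same number, while the sorting protocol speaks of a pool that was divided. Whether more than 1 animal entered a library is not given in the sources used here.

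Between 21354130 and 26398090 reads per library were counted on genes, and 3 counts corresponded to 0.114 to 0.140 CPM (counts-per-million). All 9 LT-HSC marker genes (among them Kit, Procr, Mecom and Hlf) were detected. They summed to 4038, 1950 and 4193 CPM in the CD61High libraries of mouse 1, 2 and 3, and to 5564, 1260 and 5829 CPM in CD61Low. These sums are relative to total counts, without the TMM factors used for the levels of single genes. The sum was higher in CD61High in 1 of 3 mice. Of the 9 genes, 4 were lower in CD61High in 3 of 3 mice and 0 were higher in all 3 (24.7% and 20.6% of all genes tested). Both libraries of mouse 2 stood apart: 12 neutrophil granule and maturation genes took 7.05% of the CD61High and 11.4% of the CD61Low counts of that animal, against 0.0413% to 2.11% in the other 4 libraries. The protein used for the sort is encoded by Itgb3. Its mRNA was at 191 ± 45.4 CPM in CD61High and 253 ± 110 CPM in CD61Low libraries (mean ± SD, n = 3), a difference smaller than the spread between libraries. Within mouse 1, 2 and 3 the log2 difference, CD61High minus CD61Low, was -0.51, 0.12 and -0.57, so it was lower in CD61High in 2 of 3 mice.

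Pleiotrophin, encoded by Ptn, is a heparin-binding secreted growth factor that acts through the receptor phosphatase PTPRZ1, syndecans and other surface partners, and endothelial cells of the bone marrow are a known source that supports stem cells. FGF3 is a secreted fibroblast growth factor best known from inner ear and tail development, and GDF3 is a secreted TGF-beta family ligand of the nodal type that uses activin receptors with an EGF-CFC co-receptor. MC5R is a melanocortin receptor coupled to cyclic AMP, studied mainly in exocrine glands. MLF1 (myeloid leukaemia factor 1) and ZDHHC2 are neither growth factors nor receptors: the former is an adaptor protein fused to nucleophosmin in some leukaemias, and the latter is an enzyme that attaches palmitate to proteins. The working description of the genes as growth factors and a receptor thus covers Ptn, Fgf3, Gdf3 and Mc5r only.

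Promoter sequences from RefSeq (GRCm38.p6) are given for Mlf1, Ptn and Fgf3, up to the next annotated exon. No entry was available for Gdf3 and Zdhhc2, and Mc5r was left out, so the motif results cover these 3 promoters only. Capitals mark matches to a motif on either strand, from a panel chosen with these promoters in view. Mlf1 is chr3:67373847-67374096 on the plus strand, Ptn is chr6:36810221-36810429 on the minus strand and Fgf3 is chr7:144838362-144838594 on the plus strand, where it lies in an intron of a longer annotated transcript.
Mlf1: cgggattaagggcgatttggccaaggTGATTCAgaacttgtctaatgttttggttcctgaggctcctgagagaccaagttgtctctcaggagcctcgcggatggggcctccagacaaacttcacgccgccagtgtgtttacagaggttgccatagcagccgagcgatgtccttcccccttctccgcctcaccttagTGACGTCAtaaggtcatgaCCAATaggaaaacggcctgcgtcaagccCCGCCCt
Ptn: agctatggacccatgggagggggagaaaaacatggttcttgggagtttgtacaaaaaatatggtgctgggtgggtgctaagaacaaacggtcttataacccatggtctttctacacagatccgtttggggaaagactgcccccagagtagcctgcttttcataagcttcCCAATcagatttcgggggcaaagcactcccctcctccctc
Fgf3: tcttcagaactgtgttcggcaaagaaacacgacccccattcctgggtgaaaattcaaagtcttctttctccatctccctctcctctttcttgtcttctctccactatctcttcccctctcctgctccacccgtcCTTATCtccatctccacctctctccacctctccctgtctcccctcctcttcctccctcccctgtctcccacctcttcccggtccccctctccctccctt
The Mlf1 stretch held a cyclic AMP response element (TGACGTCA), which 1.79% of 32851 RefSeq windows of 300 bases hold. It also held a GC box (GGGCGG, 35.7%), a CCAAT box (CCAAT, 37.4%) and a match to loosened AP-1 letters. Those letters (TGANTCA, 7.81% of windows) allow any middle base, which was T here. Ptn shared only the CCAAT box with Mlf1, and Fgf3 held a GATA motif (GATAAG, 7.44%), read on the minus strand. No match in these 3 windows was found for the RUNX (TGTGGT, 16.8% of windows), ETS (CCGGAAG, 8.86%), TATA box (TATAAA, 13.6%) or E-box (CAGCTG, 16.3%) letters, and no motif of the panel was in all 3. The full windows had a GC content of 58.3% (Mlf1), 52% (Ptn) and 59.3% (Fgf3), against a median of 52.7% over all windows. They held 24, 6 and 14 CpG dinucleotides, against a median of 7. A match is a description of the letters and not of a bound site.

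Each of the 6 genes had more reads in the CD61High than in the CD61Low library in all 3 mice, and for none did the groups overlap. Such a separation with CD61High higher was seen for 8.62% of the 15610 genes tested (5.71% with CD61High lower). In 3 of 3 mice CD61High was higher for 20.6% and lower for 24.7% of the genes tested. Since the genes were picked on this contrast, nothing is read from their count. The median log2 fold change of the 6 genes was 3.21 in the edgeR fit without a block, beside -0.05 over all genes tested, and 3.29 with the mouse as a block, beside -0.02. The levels of single genes below are CPM adjusted with TMM factors, while marker sums are relative to total counts. Fold changes are CD61High over CD61Low. Fewer expressing cells and less RNA per cell cannot be told apart in bulk libraries.

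Among the secreted factors, Ptn (ENSMUSG00000029838.11, chromosome 6, 36714929 to 36810220, minus strand) had 17.3, 16.3 and 21.5 CPM in CD61High cells from mouse 1, 2 and 3, respectively, and 2.19, 1.19 and 2.35 CPM in CD61Low cells, and the same order of mice is used below. The lowest CD61High value lay 6.93-fold above the highest CD61Low value, and the ratios within mice were 7.90, 13.7 and 9.18. The CD61High levels of Ptn were close together, spanning 1.32-fold, and mouse 2 had the highest ratio through its low CD61Low value, which rests on 24 reads. The log2 fold change was 3.26 (SE 0.36) without a block and 3.29 (SE 0.27) when mouse was added as a block.

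Fgf3 (ENSMUSG00000031074.14, chromosome 7, 144838083 to 144844436, plus strand) was at 25.1, 20.2 and 14.5 CPM in CD61High and at 3.50, 2.28 and 0.931 CPM in CD61Low libraries. Its levels had the same order of mice in both groups, mouse 1 above mouse 2 above mouse 3, and this order was not shared by the other 5 genes. The ratios within mice were 7.18, 8.87 and 15.6, with the highest in mouse 3, where the CD61Low library had 25 reads. The log2 fold change was 3.15 (SE 0.55) without a block and 3.28 (SE 0.30) with it. Only Mlf1 had a larger standard error without the block.

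Gdf3 (ENSMUSG00000030117.5, chromosome 6, 122605403 to 122610087, minus strand) was the most abundant and the least changed of the 6. It was at 41.4, 47.0 and 51.7 CPM in CD61High and at 15.9, 15.9 and 20.2 CPM in CD61Low libraries, where it was supported by 321 to 543 reads. The ratios of 2.60, 2.96 and 2.56 differed little between mice, and the log2 fold change was 1.43 in both fits (SE 0.19 without and 0.15 with the block). A description as near on-off therefore does not hold for Gdf3, and it holds for no member in the strict sense. None was at 0 in any CD61Low library: their counts there ran from 7 to 543.

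The receptor gene Mc5r (ENSMUSG00000007480.4, chromosome 18, 68337596 to 68342446, plus strand) was at 18.7, 18.8 and 25.997 CPM in CD61High and at 1.17, 2.62 and 2.42 CPM in CD61Low libraries. The lowest CD61High value lay 7.12-fold above the highest CD61Low value, the widest such gap of the 6 genes. The ratios within mice were 15.998, 7.18 and 10.7, and mouse 1, with 32 reads in its CD61Low library, had the highest. The log2 fold change was 3.35 (SE 0.40) without a block and 3.41 (SE 0.30) with it.

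Of the intracellular proteins, the adaptor gene Mlf1 (ENSMUSG00000048416.15, chromosome 3, 67374097 to 67400003, plus strand) had the lowest counts, and the widest spread of the 6 in CD61High libraries when taken as the ratio of the highest to the lowest (2.71). It was at 8.26, 4.32 and 11.7 CPM in CD61High and at 1.28, 0.346 and 0.707 CPM in CD61Low libraries. The ratio in mouse 2 was 12.5 (95% interval 5.83 to 31.8, counting error only), because its CD61Low library had only 7 reads. The ratios in mice 1 and 3 were 6.47 and 16.5, and the log2 fold change was 3.37 (SE 0.65) without and 3.41 (SE 0.40) with the block.

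The palmitoyltransferase gene Zdhhc2 (ENSMUSG00000039470.15, chromosome 8, 40423815 to 40510268, plus strand) was at 21.8, 12.1 and 20.4 CPM in CD61High and at 3.72, 1.63 and 3.54 CPM in CD61Low libraries. Mouse 2 was lowest in both groups, as it was for Mlf1, while the ratios of 5.86, 7.39 and 5.76 varied little between mice. The log2 fold change was 2.61 (SE 0.44) without and 2.64 (SE 0.23) with the block. Of its exon sequence, 4.47% overlaps Cnot7 on the other strand. In unstranded counts, reads on that stretch are ambiguous and stay out of both genes. Cnot7, a subunit of the CCR4-NOT deadenylase, was at 114 to 128 CPM in CD61High and 108 to 129 CPM in CD61Low libraries.

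**Figure D1:**
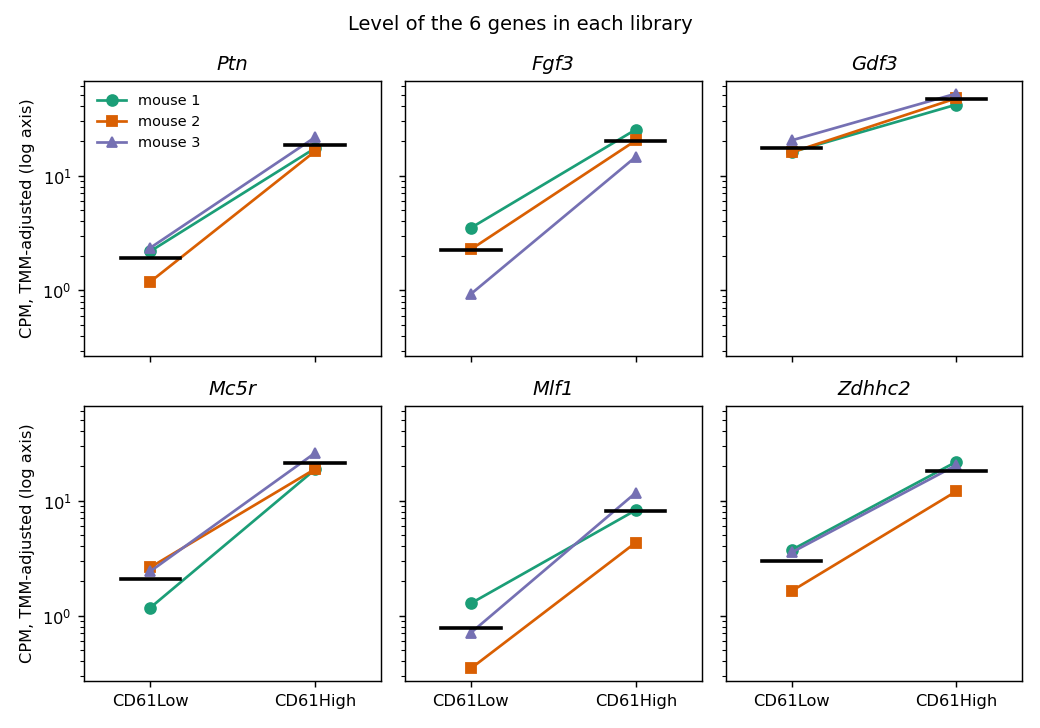
TMM-adjusted CPM (log axis) of the 6 genes in each library. Points are libraries, lines join the libraries of a mouse and black bars are group means (n = 3). For each gene the 3 CD61High points lie above the 3 CD61Low points, with the smallest step for Gdf3. On this axis the spread is widest for Mlf1 in CD61High and for Fgf3 in CD61Low.

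**Figure D2:**
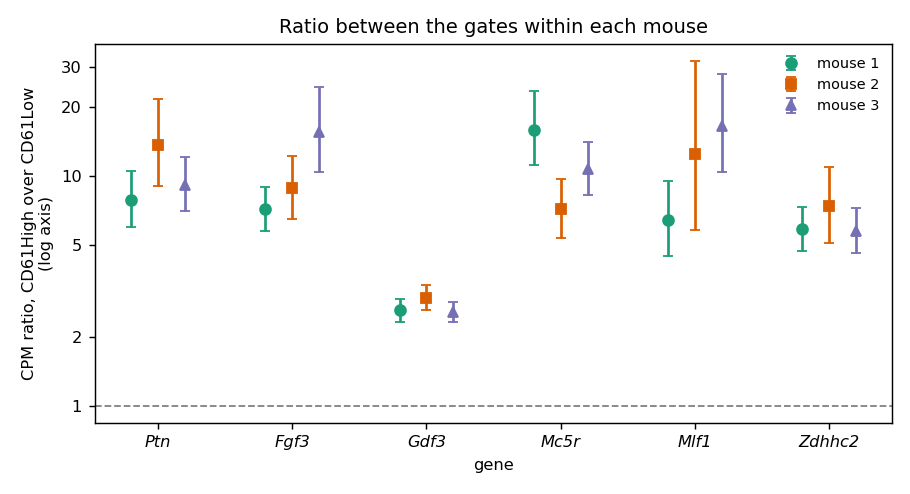
Ratio of CD61High to CD61Low CPM (log axis) for each gene within each mouse, with 95% intervals that cover counting error only. The dashed line marks equal levels. All 18 ratios lie between 2.56 and 16.5. No mouse has the highest ratio for every gene.

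The mouse with the highest ratio differed between genes: it was mouse 1 for Mc5r, mouse 2 for Ptn, Gdf3 and Zdhhc2, and mouse 3 for Fgf3 and Mlf1. Over the 6 libraries the log2 CPM of any 2 of the genes had a Pearson correlation between 0.860 (Fgf3 with Gdf3) and 0.988 (Mlf1 with Zdhhc2), as a description of genes picked for 1 contrast in shared libraries.

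Per kb of exon sequence, Gdf3 was highest in every library, at 19.3 ± 2.12 CPM per kb in CD61High and 7.16 ± 1.03 in CD61Low (mean ± SD, n = 3). In CD61High it was followed by Fgf3 at 8.58 ± 2.28, Mc5r at 5.42 ± 1.07, Ptn at 5.35 ± 0.813, Mlf1 at 4.71 ± 2.15 and Zdhhc2 at 3.27 ± 0.951 CPM per kb. Below Fgf3, neighbours in this order from Mc5r on differed by less than the larger of their SDs. In CD61Low the levels per kb of Fgf3 (0.961 ± 0.553), Ptn (0.556 ± 0.183), Zdhhc2 (0.536 ± 0.209), Mc5r (0.530 ± 0.202) and Mlf1 (0.452 ± 0.273) were not separated by their spread. Among the genes tested, the CD61High means per kb stood between the 40.9th percentile (Zdhhc2) and the 78.8th (Gdf3), and the CD61Low means between the 11.6th (Mlf1) and the 55.9th (Gdf3). These genes thus stood at mid-range levels in CD61High libraries, and 5 of the 6 in the lower part of the range in CD61Low libraries. A low CD61Low level was part of what they were picked for, so this standing is a description only. The count filter can also pass a gene on the libraries of 1 gate alone.

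In the edgeR quasi-likelihood fit without a block, no gene of 15610 passed an adjusted p of 0.05 (percent called 0), while 6.55% had an unadjusted p under 0.05 (3.56% with CD61High higher) and DESeq2 without a block called 237. Adding the mouse to the edgeR model brought 40 calls, 15 of them higher in CD61High (0.0961% of those tested) and 25 lower (0.16%). The members were picked on this contrast, so nothing is read from their own place among these calls, which also varied with the settings. The 9 genes called higher that are not members had log2 fold changes from 1.17 (Cd34, a progenitor sialomucin) to 2.66 (Slc22a3, an organic cation transporter). They also included the platelet integrin gene Itga2b (2.42), the platelet glycoprotein genes Gp5 (1.499) and Gp9 (1.42) and Arxes2 (2.07). The fitted values of Gdf3 (1.43) and Zdhhc2 (2.64) lay within the range of these 9 genes.

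The genes around each member's protein (ligands, receptors, partners and family members) did not pass in either direction in the 2 edgeR fits used here. Other settings, given at the end, called up to 11 of them. Of 165 such genes that are not members, 163 had a row, 116 were tested and 19 had no read in any of the 6 libraries. With edgeR, 0 of the 116 were called without a block and 0 with it, where the lowest adjusted p was 0.652 and 0.0512. The background over all genes was 0% and 0.256%. At an unadjusted p under 0.05, 5 were past it without the block (6.55% of all genes). With it, 24 were, 7 higher and 17 lower in CD61High (8.01% and 12.8% of all genes). Their median log2 fold change with the block was -0.04, beside -0.02 over all genes tested.

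**Figure D3:**
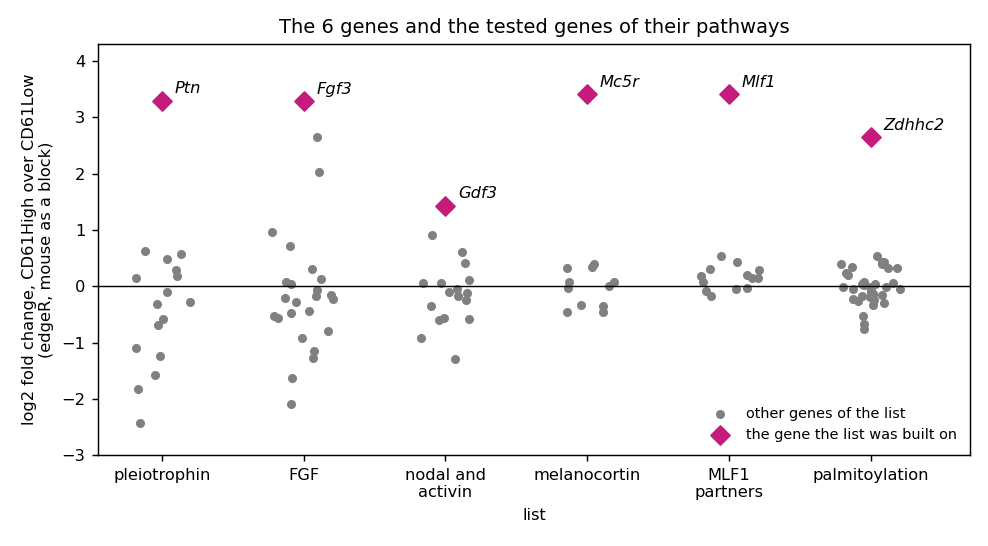
Log2 fold change, CD61High over CD61Low, from the edgeR fit with the mouse as a block, for each tested gene of the 6 lists (grey) and for the member each list was built on (diamond). The members, picked on this contrast, lie between 1.43 and 3.41, and the other 116 genes, of which 0 were called, between -2.43 and 2.64.

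Around pleiotrophin, the related ligand Mdk (midkine) was at 2.15, 2.09 and 1.18 CPM in CD61High and at 5.73, 2.52 and 3.57 CPM in CD61Low libraries. It was thus lower in CD61High in 3 of 3 mice, opposite to Ptn, as were 24.7% of all genes tested. Its log2 fold change of -1.10 did not pass (edgeR with the block, adjusted p = 0.194). Ptprz1, the phosphatase receptor of pleiotrophin, had no read in 4 libraries and was at 0.730 and 0.707 CPM in the CD61Low libraries of mice 1 and 3. Alk, another reported receptor, had no read in any library. Other binding partners were present in both gates: Ptprs, a related receptor phosphatase, at 193 ± 51.1 against 144 ± 75.5 CPM, the nucleolar and surface protein gene Ncl at 827 ± 166 against 668 ± 80.1 CPM, and Sdc2, a syndecan, at 57.3 ± 10.1 against 55.4 ± 23.9 CPM (CD61High against CD61Low, mean ± SD, n = 3).

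The syndecan gene Sdc4 was at 22.5, 14.9 and 11.6 CPM in CD61High and at 45.01, 30.5 and 37.3 CPM in CD61Low libraries, without overlap. Sdc4 was called under 5 of the 25 alternative settings. Its log2 fold change was -1.24 (SE 0.20, edgeR with the block, adjusted p = 0.0605). The scavenger receptor gene Lrp1 had a log2 fold change of -1.83 (adjusted p = 0.108 in that edgeR fit), but its levels in mouse 2 (28.9 and 58.2 CPM) stood far above the 1.38 to 12.7 CPM of the other 4 libraries. Without a block the value was -1.24. It became 0.33 in that fit when the CD61Low library of mouse 2 was left out and -2.58 when both libraries of mouse 2 were (-2.37 with the block). Fyn, a Src family kinase that pleiotrophin signalling can engage, had a log2 fold change of 0.49 (adjusted p = 0.118 in that fit) and was higher in 3 of 3 mice. Of the 16 tested genes of this list, 6 had an unadjusted p under 0.05 with the block. They were 1 higher and 5 lower, beside 8.01% and 12.8% of all genes. The median log2 fold change of the list was -0.30.

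In CD61High libraries Fgf3, which was picked on this contrast, had the highest mean of the fibroblast growth factor genes. Of the other 21 ligand genes, 5 passed the filter on low counts and 7 had no read in any library. The highest mean among them was that of Fgf11, an intracellular family member, at 3.38 ± 1.47 CPM in CD61High and 3.86 ± 1.74 CPM in CD61Low (n = 3). The receptor gene Fgfr1 was at 28.9, 18.1 and 25.8 CPM in CD61High and at 35.6, 15.99 and 38.1 CPM in CD61Low libraries, which overlap. Fgfr3 was at 9.12, 3.05 and 11.2 CPM in CD61High and at 29.1, 7.38 and 41.9 CPM in CD61Low libraries.

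Fgfr3 was therefore lower in CD61High in 3 of 3 mice, as were 24.7% of all genes tested. Opposite in sign to Fgf3, its fitted log2 difference was -1.63 (SE 0.21). Its adjusted p in the edgeR fit with the block was 0.0512, the lowest of all 116 genes and just short of the threshold. With relative log expression factors in place of TMM, and under 4 other alternatives with the block, it was called. An uncharacterised gene on the other strand overlaps 13.9% of its exon sequence. The decoy receptor gene Fgfrl1 (-0.79, adjusted p = 0.092) and the feedback inhibitor gene Spry4 (-1.15, adjusted p = 0.0847) were also lower in 3 of 3 mice without passing that fit. Etv4, a transcription factor gene that FGF signalling induces, had a log2 fold change of 2.64 (adjusted p = 0.117, edgeR with the block) from levels of at most 1.85 CPM. Of its relatives, Etv1 had 2.02 (adjusted p = 0.333 in that fit) from levels of at most 0.828 CPM, and Etv5 was at 70.4 ± 21.4 CPM in CD61High and 73.0 ± 39.0 CPM in CD61Low.

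For the nodal-type ligand Gdf3, the EGF-CFC co-receptor gene Tdgf1 (cripto) had no read in any library, and its relative Cfc1 was at 0.436 to 1.25 CPM in CD61High and 0.247 to 0.547 CPM in CD61Low libraries. The ligand gene Gdf1 had no read, and Nodal was at 0 in 4 libraries and at 0.218 CPM or less in the other 2. The activin receptor genes were detected in both gates, Acvr1b at 4.301 ± 1.32 against 6.42 ± 1.46 CPM, Acvr2a at 14.2 ± 5.82 against 22.3 ± 11.9 CPM and Acvr2b at 6.26 ± 2.60 against 6.24 ± 3.02 CPM. The signal transducer gene Smad2 was at 98.0 ± 8.79 against 91.3 ± 9.90 CPM, and Lefty1, a nodal inhibitor, at 8.64 ± 2.49 against 8.67 ± 0.297 CPM. The smallest p-values of this list belonged to Gdf11 (-1.29, adjusted p = 0.176), Smad7 (-0.59, adjusted p = 0.191) and Acvr2a (-0.56, adjusted p = 0.206), all from edgeR with the block. At an unadjusted p under 0.05 in that fit, 0 of its 17 tested genes were higher and 3 lower, beside 8.01% and 12.8% of all genes.

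Of the melanocortin receptor genes only Mc5r, which was picked on this contrast, passed the filter on low counts. Mc3r and Mc4r had no read in any library, Mc1r had reads in 1 library at 0.0495 CPM, and Mc2r was at 0 in 3 libraries and at most 0.785 CPM. None of these 4 could be tested. The ligand precursor gene Pomc was at 0.295 to 0.602 CPM in CD61High and 0.335 to 0.474 CPM in CD61Low libraries. Mrap and Mrap2, which encode receptor accessory proteins, were at no more than 0.610 CPM and at 0. Downstream of such receptors, the adenylate cyclase gene Adcy7 was at 101 ± 14.8 against 140 ± 27.5 CPM (log2 fold change -0.46, adjusted p = 0.121) and the protein kinase A gene Prkaca at 97.2 ± 14.0 against 77.4 ± 13.9 CPM (0.34, adjusted p = 0.213, both edgeR with the block). The stimulatory G protein gene Gnas read 2.25 ± 0.554 and 1.70 ± 0.343 CPM, but 22.0% of its exon sequence overlaps antisense transcripts, so this level is uncertain.

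The partners of MLF1 were measured well and differed little. The paralogue Mlf2 was at 170 ± 18.9 CPM in CD61High and 154 ± 12.9 CPM in CD61Low. Mlf1, which unlike Mlf2 was picked on this contrast, differed about 10.4-fold between the means. Cops3, a COP9 signalosome subunit bound by MLF1, was at 132, 132 and 129 CPM in CD61High and at 84.2, 114 and 77.4 CPM in CD61Low libraries, without overlap (log2 fold change 0.54, adjusted p = 0.126, edgeR with the block). Trp53 (0.30, adjusted p = 0.304) and the nucleophosmin gene Npm1 (0.29, adjusted p = 0.355) followed in that fit. Of 13 tested genes, 1 had an unadjusted p under 0.05 with the block, and it was higher, beside 8.01% of all genes. The median log2 fold change was 0.15.

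Zdhhc2 belongs to a family of 24 listed palmitoyltransferase genes, of which 19 others were tested. Their log2 fold changes ran from -0.53 to 0.53, while that of Zdhhc2 was 2.64. Zdhhc2 was picked on this contrast and its relatives were not, so its place among them, here and below, is a description only. Its closest relative Zdhhc15 was at 20.997, 19.7 and 28.8 CPM in CD61High and at 18.2, 12.7 and 17.1 CPM in CD61Low libraries, without overlap, with a log2 fold change of 0.53 (edgeR with the block, adjusted p = 0.200). Zdhhc13 (0.40, adjusted p = 0.181) and Zdhhc6 (0.43, adjusted p = 0.190) also had small positive values in that fit. Per kb of exon, Zdhhc2 was at 0.536 CPM in CD61Low, below all 19 tested relatives (1.34 or more), and at 3.27 CPM in CD61High, above Zdhhc14 (3.11), Zdhhc21 (1.72) and Zdhhc23 (1.63).

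Among enzymes that remove palmitate and proteins that carry it, the depalmitoylase gene Abhd17b was at 89.2 ± 3.43 against 145 ± 37.8 CPM (log2 fold change -0.67, adjusted p = 0.108), and Ckap4, a known ZDHHC2 substrate, had -0.75 (adjusted p = 0.0767, both edgeR with the block). Ckap4 was at 323 and 564 CPM in mouse 2 and between 50.8 and 121 CPM in the other 4 libraries, and without a block its value was -0.80. That became 0.61 when the CD61Low library of mouse 2 was left out and -0.79 when both libraries of that mouse were (-0.74 with the block). The tetraspanin genes Cd9 (342 ± 102 against 340 ± 138 CPM) and Cd151 (12.5 ± 6.08 against 14.9 ± 8.19 CPM), whose proteins ZDHHC2 palmitoylates, differed by less than their spread.

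The members lie on 5 chromosomes, and their genomic neighbours did not share their pattern at the threshold. Of 30 neighbouring protein-coding genes (up to 3 on each side within 500 kb), 17 were tested, and edgeR called 0 without a block and 0 with it. At an unadjusted p under 0.05, 0 of the 17 were past it without the block (6.55% of all genes) and 4 with it (20.8%). Those 4 were Lxn (0.59), Gfm1 (0.38) and Rsrc1 (0.36), all beside Mlf1, and the glucose transporter gene Slc2a3 (-0.64, adjusted p = 0.0808), beside Gdf3.

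Lxn, which encodes latexin, a carboxypeptidase inhibitor known as a regulator of stem cell number, lies 58.0 kb from Mlf1. It was at 73.1, 52.6 and 63.7 CPM in CD61High and at 43.6, 31.9 and 52.1 CPM in CD61Low libraries, so it was higher in each mouse, with the highest CD61Low value just below the lowest CD61High value. Its adjusted p was 0.114 in the edgeR fit with the block. Fgf4, 2.93 kb from Fgf3, had no read in any library, and Fgf15, 52.1 kb away, had at most 0.129 CPM. Beside Gdf3, the pluripotency genes Dppa3 and Nanog had reads in 1 library each, at 0.0365 and 0.0372 CPM, while the RNA editing gene Apobec1, 2.96 kb away, was at 26.4 to 40.5 CPM in CD61High and 25.7 to 55.8 CPM in CD61Low libraries.

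Of Mc5r's neighbours, the cap methyltransferase gene Rnmt was at 93.5 against 80.8 CPM and Mc2r was near the floor. Vps37a, an ESCRT gene 1.51 kb from Zdhhc2, overlapped between the gates (36.6 to 47.5 against 35.9 to 47.5 CPM). Chrm2, beside Ptn, had no read, and Dgki had at most 0.258 CPM.

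The genes whose log2 CPM followed each member most closely over the 6 libraries were listed as a description, since 13333 candidate genes were compared with a pattern that is high in 3 libraries and low in 3. For Ptn they were Polr3k, an RNA polymerase III subunit (Pearson r = 0.997), the matrix protein gene Emid1 (0.994) and Mfsd3 (0.993). For Fgf3 they were Proser2 (0.994), Sh3bgrl (0.985) and the deglutamylase gene Agtpbp1 (0.984), and for Gdf3 the chromatin gene Mphosph8 (0.998), the splicing GTPase gene Eftud2 (0.997) and Mnd1-ps (0.996). Mc5r was followed by Rbm14 (0.997), the purine synthesis gene Paics (0.996) and Elavl1 (0.994). Mlf1 was followed by Ppat (0.996), which catalyses the first committed step of purine synthesis, and the RNA polymerase II subunit gene Polr2b (0.995), and Zdhhc2 by Arxes2 (0.995), Phf7 (0.995) and Lrrc40 (0.994).

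These genes had the shape of the members and mostly not their size. Emid1 was at 32.9 ± 1.77 CPM in CD61High and 14.1 ± 2.50 CPM in CD61Low, a log2 fold change of 1.24 (edgeR with the block, adjusted p = 0.0512). Arxes2, called with the block, was at 11.4 ± 2.82 against 2.703 ± 0.584 CPM (2.07). Polr3k differed far less, at 126 ± 1.81 against 87.1 ± 5.69 CPM (0.53), as did Paics at 467 ± 17.3 against 292 ± 18.5 CPM (0.68) and Agtpbp1 at 54.6 ± 2.44 against 46.6 ± 1.87 CPM (0.23).

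Markers of other cell types also moved with the gates, and their part in the members' difference was not tested. The 10 megakaryocyte and platelet markers summed to 1658, 1019 and 1832 CPM in CD61High (mouse 1, 2 and 3 in order) and to 770, 322 and 1090 CPM in CD61Low. They were thus higher in CD61High in 3 of 3 mice, as the members were. So were 6 of the 10 genes singly, beside 20.6% of all genes tested. The 12 neutrophil markers summed to 5479, 70468 and 413 CPM in CD61High and to 21119, 113832 and 2041 CPM in CD61Low libraries. All 12 were lower in CD61High in 3 of 3 mice, beside 24.7% of all genes tested. The erythroid, monocyte and macrophage, B lineage and T and NK cell sums were also lower in CD61High in each mouse.

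Stromal and osteolineage markers, of interest because bone marrow stroma makes pleiotrophin, summed to 61.2, 212 and 48.4 CPM in CD61High and to 64.2, 223 and 147 CPM in CD61Low, and so were higher in CD61High in 0 of 3 mice. The 8 endothelial markers, some of which LT-HSCs also express, summed to 608, 370 and 517 CPM in CD61High and 649, 271 and 664 CPM in CD61Low, higher in 1 of 3 mice. The part of either cell type in the Ptn level was not tested. All 10 stromal and osteolineage markers had reads in at least 1 library. In mouse 2, whose libraries held the most neutrophil transcripts, the ratios of the 6 genes ran from 2.96 to 13.7, the lowest of the 3 mice for Mc5r, the highest for Ptn, Gdf3 and Zdhhc2 and between the other two for Fgf3 and Mlf1.

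**Figure D4:**
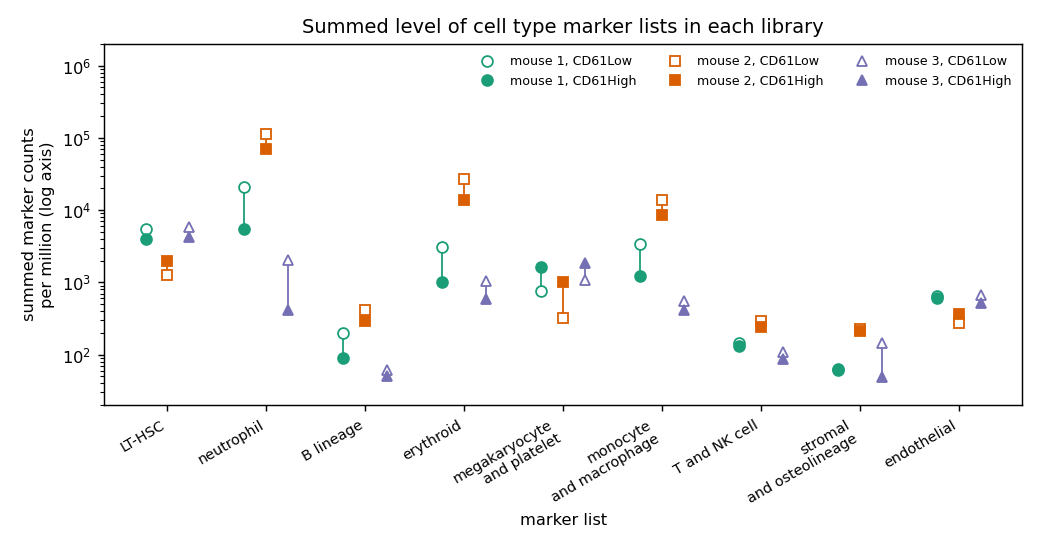
Summed CPM, here relative to total counts without TMM (log axis), for 9 marker lists in each library, with filled symbols for CD61High and open symbols for CD61Low, joined within a mouse. The megakaryocyte and platelet list is higher in CD61High in 3 of 3 mice and the neutrophil list lower in 3 of 3, with the highest neutrophil sums, 70468 and 113832, in mouse 2.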

How the data were processed

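The authors' deposited files hold unstranded STAR read counts per gene for each library (STAR 2.7, MultiQC and edgeR per the submitters' processing notes). The genome build is not given in the sources used here. All 55450 gene IDs, with version, matched GENCODE M21 (GRCm38). Reads assigned to no gene (no feature, ambiguous, multimapping) stayed out of library sizes, and 49.9% to 50.0% of stranded counts fell on either strand. A table of the whole series was not used here. Counts were filtered with filterByExpr, scaled with TMM and fitted with edgeR 4.0.16 (R 4.3.3; quasi-likelihood, robust, two-sided, Benjamini-Hochberg over 15610 genes, called at an adjusted p under 0.05), without a block and with the mouse as a block. The titles give the same mouse numbers in both gates. Deviations of same-numbered libraries from their group means correlated at 0.236, 0.806 and 0.761, and of other pairs at -0.823 to 0.374. Alternatives were other scalings, no filter, DESeq2 1.42.0, limma 3.58.1 with voom, and leaving out libraries or mice. The script was tested on simulated data.

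The members and gene lists were chosen with earlier results of these data known. Named genes are the members, per list the 3 smallest p-values with the block plus receptors and family members, neighbours at 1 CPM or above, and the 3 genes of highest Pearson correlation with each member (log2 CPM, prior count 2, predicted models left out). For Mlf1, 1 of these 3 is not reported here. Neighbours below 1 CPM, Etv1, Etv4, Etv5, Mdk, Zdhhc6, Zdhhc15 and the examples from the correlated genes were named after their values were seen. Replicates are single libraries per mouse number. Without the block, p-values rest on the spread between the libraries of a gate, and with it on the spread of the differences within mouse numbers. Sequences are from RefSeq (GRCm38.p6).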

Additional observations from a re-analysis of the deposited data

How the results depend on the processing

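All 6 members were higher in CD61High in the main fit and in all 25 alternatives, with log2 fold changes from 3.02 to 3.46 (Ptn), 2.75 to 3.64 (Fgf3), 1.35 to 1.53 (Gdf3), 3.05 to 3.68 (Mc5r), 2.89 to 3.89 (Mlf1) and 2.32 to 2.83 (Zdhhc2). Their median ranged from 2.92 (without mouse 3) to 3.37, and from 2.92 to 3.27 on leaving out libraries or mice without a block. Because the members were picked on this contrast, nothing is read from how many of them were called. With the block they were 6 of the 40 genes called with TMM, 4 of 8 with upper-quartile factors and 0 of 0 with library sizes alone. On leaving out a mouse, also with the block, they were 0 of 0 (mouse 1), 6 of 742 (mouse 2) and 0 of 7 (mouse 3). All 6 were called with the block under relative log expression factors, no filter, voom and DESeq2. Without the block, 6 were called with DESeq2 and 4 without mouse 2. How many genes were called depended on the fit. Against 0 of all genes without a block, the mouse as a replicate block gave 40, relative log expression factors with the block 88, upper-quartile factors with it 8, no filter with it 747, limma voom with it 489, DESeq2 237 and DESeq2 with the block 1566. The block with library sizes alone gave 0. Leaving out libraries or mice gave 0 to 742: 133 without mouse 2, 742 without mouse 2 and with the block, 7 without mouse 3 and with the block. Of the pathway genes, called 0 times in the main fit and with the block alone, 1 was called with relative log expression factors and the block (Fgfr3), 3 with no filter and the block and 3 with voom and the block (Sdc4, Fgfr3 and Ckap4 each time), 2 with DESeq2 (Sdc4 and Fgfrl1), 11 with DESeq2 and the block, and 0 to 7 on leaving out libraries or mice (1, Abhd17b, without mouse 2, and 7 with the block as well). Of the neighbours, Slc2a3 was the 1 called with no filter and the block and with voom and the block, Lxn and Slc2a3 were the 2 called with DESeq2 and the block, and leaving out libraries or mice gave 0 to 1. On leaving out single libraries or mice, Lrp1 ranged from -4.13 to 0.33 and Ckap4 from -2.18 to 0.61, both without a block and positive only without the CD61Low library of mouse 2. The cause of these changes was not tested. The 3 genes most correlated with each member were the same with a prior count of 0.5. Depth limits Mlf1 most, with 7 to 35 reads in CD61Low libraries, and genes under 0.140 CPM cannot be told from 0. Fits that leave a gate with 2 libraries assume that they vary like the rest.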
